A study of Homo sapiens with 33 samples.

Results

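The genes described here are 38 genes of the G1/S transition and of DNA replication, taken by symbol from a table of read counts that lists 26475 genes. They were measured by total RNA sequencing in HEK293T, a human embryonic kidney line that carries the large T antigen. Cells were transfected with a plasmid for 1 of 5 Cas9 constructs joined to GFP together with a plasmid for 1 of 2 guide RNAs, named HEKsite2 and RNF2, or received GFP with no guide RNA. All GFP-positive cells were collected by flow sorting 36 to 40 hours later. The constructs were nCas9 (the Cas9 nickase without a deaminase), ABEmax and miniABEmax-V82G (adenine base editors), Target-AID (a cytidine base editor) and SpACE (an editor that carries an adenine and a cytidine deaminase). The 10 combinations of construct and guide and the GFP group had 3 libraries each, 33 in all. Every group is 1 transfected cell line, so the cells differ in how much plasmid they took up, and the labels do not say whether replicates came from separate cultures: p-values measure the spread between these libraries only.

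The libraries held between 6790209 and 11200406 counted reads. The 38 genes had between 79 and 4713 reads in a library, and all of them passed the filter on low counts with which 14613 genes were tested. Values are CPM, the usual library-size unit of read counts, taken on TMM-scaled library totals, and differences are log2 fold changes with the standard error (SE) of 1 edgeR quasi-likelihood fit over all libraries. "Rose" and "fell" mean a Benjamini-Hochberg adjusted p under 0.05 over all genes tested. The neurofilament gene NEFL, a known transcript of this line, lay between 58.7 and 88.5 CPM in every library, while the kidney gene PAX2 reached at most 0.776 CPM and was at 0 in 3 libraries. RNA from fewer cells in a phase and less RNA per cell cannot be told apart in these bulk samples.

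In the G1 phase, RB-family proteins hold E2F transcription factors inactive at the promoters of cell-cycle genes. Cyclin D and cyclin E kinases phosphorylate RB and release E2F, which then drives genes for cyclin E, nucleotide synthesis, origin licensing and the replication fork. In HEK293T the large T antigen, which every group here carries, binds RB-family proteins and weakens this brake. E2F1 and E2F2 are activating members of the family, and E2F7 and E2F8 are repressors that E2F itself induces.

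Promoter sequences were looked up because these genes are textbook E2F targets. RefSeq starts on GRCh38.p14 were available for 31 of the 38 genes (no entry was used for E2F8, CCNE2, GINS4, DSCC1, RPA2, RPA3 and WDR76), and the 250 bases upstream of the first listed start were searched on both strands for TTTCCCGC, TTTCGCGC, TTTGCCGC and TTTGGCGC, forms of the E2F element. At least 1 match was present in 11 of the 31 (35.5%), against 761 of 27305 promoters in the whole table (2.79%). The 11 were E2F1, E2F2, CDC25A, TYMS, GINS2, POLA1, POLA2, PCNA, RFC3, UHRF1 and DTL. The windows below are 60 bases of the searched stretch from 5 of them, chosen to show the genes with a match whose levels rose the most with nCas9 against GFP, together with PCNA and a gene that did not respond (POLA1); capitals mark the matches on either strand.
E2F1: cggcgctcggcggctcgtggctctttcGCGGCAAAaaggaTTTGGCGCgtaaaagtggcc
E2F2: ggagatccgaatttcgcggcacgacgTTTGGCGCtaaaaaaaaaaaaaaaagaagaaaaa
CDC25A: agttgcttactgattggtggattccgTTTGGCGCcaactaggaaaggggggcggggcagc
PCNA: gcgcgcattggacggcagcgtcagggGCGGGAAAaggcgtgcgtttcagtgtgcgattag
POLA1: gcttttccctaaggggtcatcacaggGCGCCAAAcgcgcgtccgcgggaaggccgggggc
Counted back from the start, they cover bases 60 to 1 (E2F1), 68 to 9 (E2F2), 70 to 11 (CDC25A), 85 to 26 (PCNA) and 163 to 104 (POLA1). On GRCh38.p14 these lie at chr20:33686386-33686445 (minus strand, E2F1), chr1:23531242-23531301 (minus, E2F2), chr3:48188428-48188487 (minus, CDC25A), chr20:5126648-5126707 (minus, PCNA) and chrX:24693755-24693814 (plus, POLA1). The E2F1 window holds 2 matches and each of the others holds 1. A match describes the letters of the window and is not evidence of binding.

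Per kilobase of exon (GENCODE 29), the mean level of the 38 genes over all libraries ran from 5.03 RPKM for TYMS, thymidylate synthase, to 186 RPKM for PCNA, the sliding clamp of the replication fork, with a median of 28.7 RPKM. The ratio of the highest to the lowest group mean had a median of 1.498 over the 38 genes. It exceeded 2 for 3 of them, E2F1 (3.03), E2F2 (2.91) and CCNE1 (2.01), and was lowest for RRM1, a subunit of ribonucleotide reductase (1.12). Across the 11 groups 36 of the 38 genes differed in the edgeR test of any difference, beside 73.9% of all genes tested, so a call of some difference is the usual outcome in this table. RRM1 and POLA1, the catalytic subunit of DNA polymerase alpha, did not pass it (adjusted p 0.142 and 0.148). The GFP group had the lowest mean of the 11 for 22 of the 38 genes and the highest for 5. GFP differed widely over the whole table, with 6647 of 14613 genes called for nCas9 against GFP. How often GFP was the extreme group over all genes was not counted, so these counts only describe the 38.

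**Figure D1:**
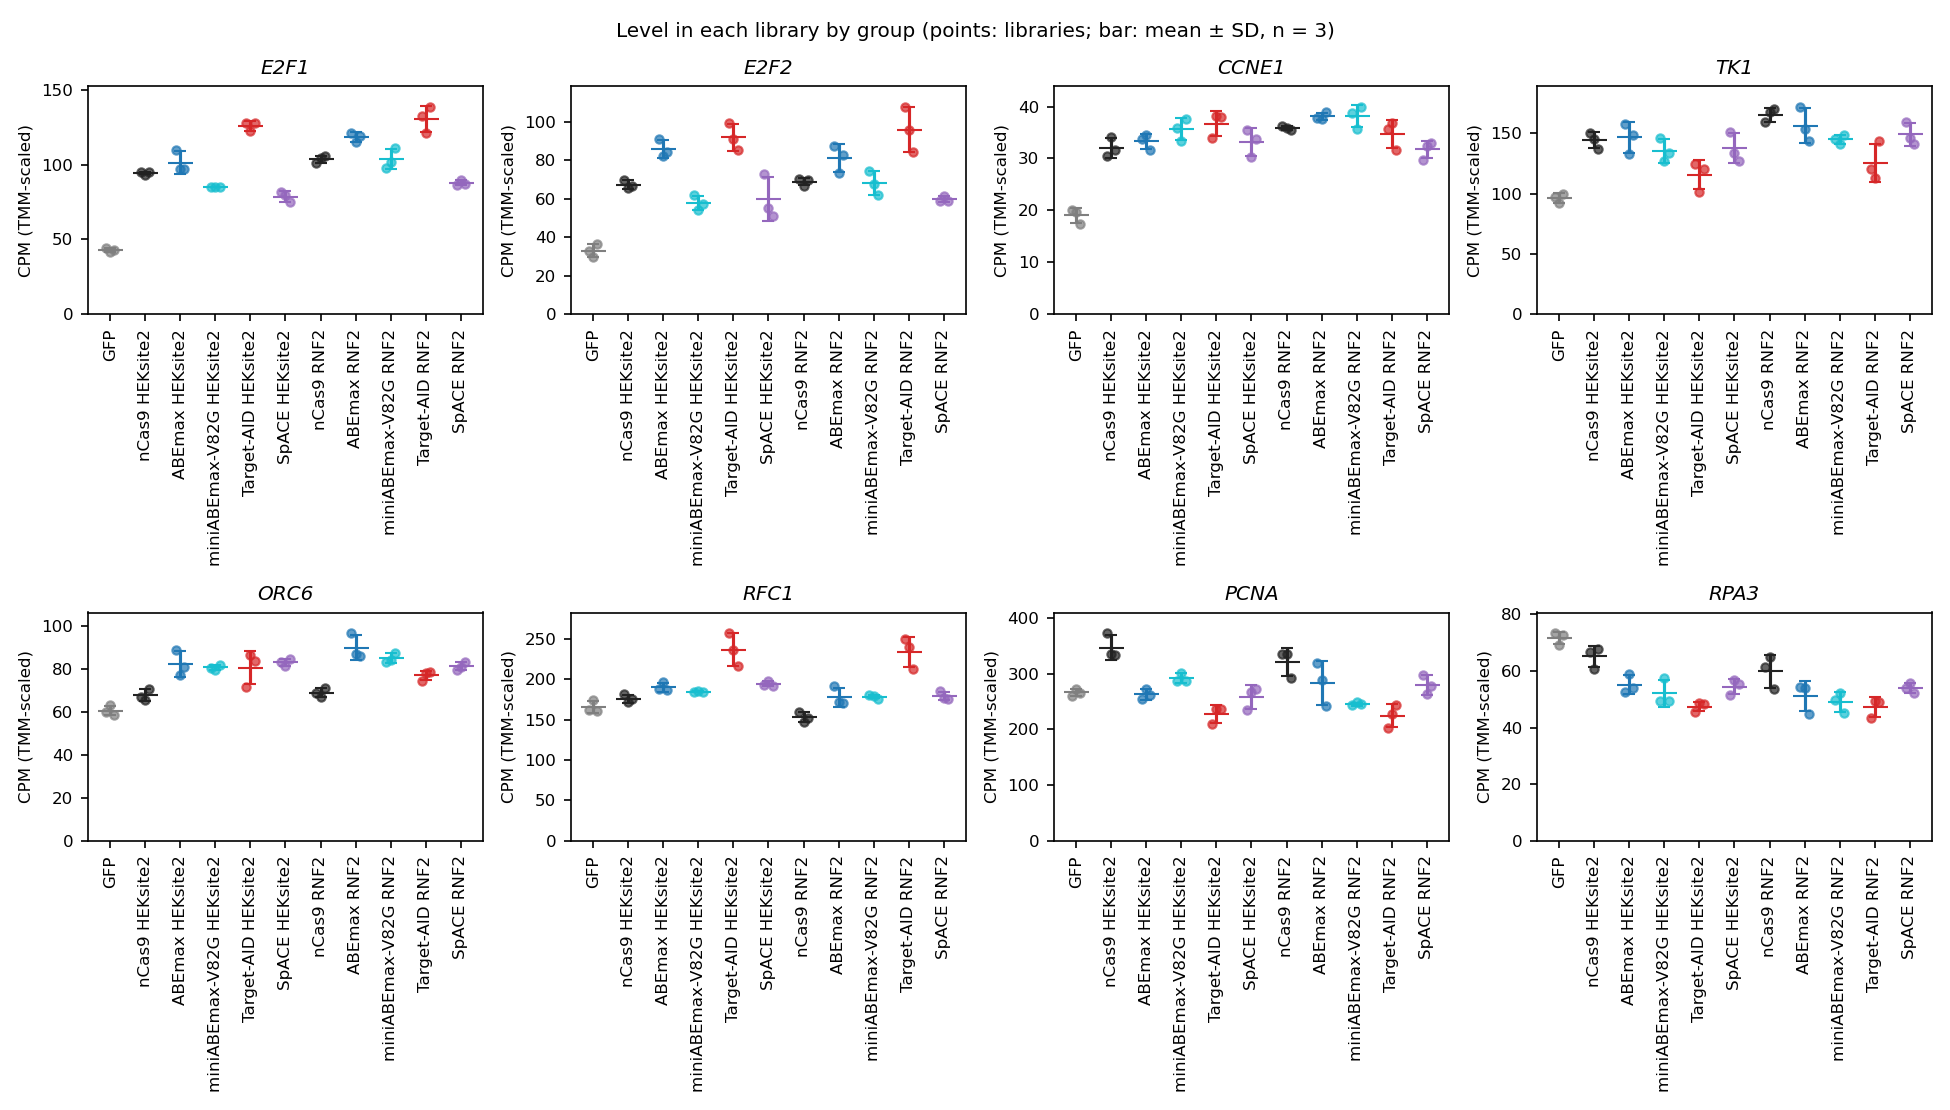
CPM (vertical axis, from 0) of 8 genes in each of the 33 libraries, by group; points are libraries, bars are the mean ± SD of 3. E2F1 in the 3 GFP libraries lies at 41.8 to 44.6 CPM, below every other library, and the 6 Target-AID libraries hold its highest values.

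Against GFP alone, the nickase group, averaged over both guides, had higher levels of most of the 38 genes. E2F1 rose the most, followed by E2F2, CCNE1, CDC25A and TK1 (log2 fold changes of 1.20 to 0.68), and 4 replication genes, DSCC1, PRIM1, GINS1 and RPA3, fell. Of the 38 genes 25 rose and 4 fell, beside 22.8% and 22.7% of all genes tested, and their median log2 fold change was 0.23 against 0.0064 over all genes. GFP cells lacked the Cas9 protein, its plasmid and a guide at once, so these cannot be told apart, and the 5 comparisons below share the GFP libraries.

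E2F1 was at 44.6, 41.8 and 42.9 CPM in the GFP libraries, at 94.8, 93.4 and 95.2 with nCas9 and the HEKsite2 guide, and at 101, 104 and 106 with nCas9 and the RNF2 guide. The groups did not overlap, and the log2 fold change was 1.20 ± 0.055 (SE; edgeR adjusted p = 4.097e-20). E2F2 was at 33.1, 29.7 and 36.3 CPM with GFP and between 65.5 and 70.3 CPM in the 6 nCas9 libraries. Its log2 fold change was 1.05 ± 0.088 (edgeR adjusted p = 1.584e-12). CCNE1, which encodes cyclin E1, was at 20.0, 19.7 and 17.3 CPM with GFP and at 30.4 to 36.3 CPM with nCas9 (log2 fold change 0.83 ± 0.075). CDC25A, the phosphatase that activates the kinases of the G1/S transition, was at 250, 247 and 246 CPM with GFP and at 383 to 441 CPM with nCas9 (0.73 ± 0.059). CCNE2, cyclin E2, rose by 0.41, the repressor E2F8 by 0.63, and E2F7 stayed at -0.11 without passing the test. Thus 6 of the 7 transcription-factor and cyclin genes rose and none fell.

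The genes of nucleotide supply split. TK1, thymidine kinase, was at 97.3, 92.1 and 99.9 CPM with GFP, at 150, 146 and 137 with nCas9 and HEKsite2, and at 159, 168 and 170 with nCas9 and RNF2, without overlap (log2 fold change 0.68 ± 0.070, edgeR adjusted p = 3.461e-10). TYMS rose by 0.44, whereas the ribonucleotide reductase genes RRM1 (-0.12) and RRM2 (-0.06) did not pass the test. TYMS shares 3255 bases with ENOSF1 on the opposite strand, and the strand setting of the counting is not given in the sources used here.

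Among the 6 origin and helicase genes 5 rose and 1 fell. GINS2, GINS3 and GINS4, subunits of the GINS complex of the replicative helicase, rose by 0.48, 0.47 and 0.24, while their partner GINS1 fell by 0.34 on the log2 scale. ORC6 and ORC1, subunits of the origin recognition complex, rose by 0.17 and 0.15. The call of ORC6 was lost without GFP replicate 3 (adjusted p 0.0599). That of ORC1 was lost without any 1 of GFP replicates 1, 2 and 3, nCas9 HEKsite2 replicate 1 or nCas9 RNF2 replicate 1 (adjusted p up to 0.117), and with the HEKsite2 libraries alone its value was -0.031. Of the primase and polymerase alpha genes, POLA2 rose by 0.26 and PRIM1, the small primase subunit, fell by 0.39. PRIM1 was at 68.7, 65.6 and 68.4 CPM with GFP, at 56.6 to 61.2 with nCas9 and HEKsite2 and at 43.9 to 47.8 with nCas9 and RNF2, so that the lower levels were those with the RNF2 guide.

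At the clamp and its loader, PCNA was at 260, 273 and 266 CPM with GFP and at 293 to 373 CPM with nCas9 (log2 fold change 0.33 ± 0.065, edgeR adjusted p = 8.307e-05). RFC5 (0.50) and RFC2 (0.21), subunits of the clamp loader, rose, and RFC1, its large subunit, was at -0.01. DSCC1, part of an alternative clamp loader that acts in sister chromatid cohesion, moved the other way. It was at 56.3, 57.1 and 57.4 CPM with GFP and at 36.6 to 43.6 CPM in the 6 nCas9 libraries, without overlap (log2 fold change -0.49 ± 0.059, edgeR adjusted p = 6.776e-09). FEN1, the flap endonuclease, and RPA2, a subunit of the single-strand binding protein RPA, rose by 0.48 and 0.24. FEN1 shares 4265 bases with FADS2 on the same strand, and how shared reads were counted is not given in the sources used here. RPA3, the smallest RPA subunit, fell by 0.20, a call lost without GFP replicate 1 (adjusted p 0.0525) or with the HEKsite2 libraries alone (0.152). RPA3 shares 77897 bases with UMAD1 on the opposite strand.

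All 4 chromatin and histone genes rose, UHRF1 (0.51), which brings DNA methylation onto new strands, CHAF1B (0.41) and CHAF1A (0.14) of the CAF-1 histone chaperone, and SLBP (0.20), which binds histone mRNA. The CHAF1A call was lost without any 1 of 6 libraries (nCas9 HEKsite2 replicates 1 and 2, nCas9 RNF2 replicates 1 and 2, GFP replicates 1 and 3; adjusted p up to 0.139) and with either guide alone. With no filter on low counts the calls of CHAF1A, ORC1 and ORC6 were lost as well. WDR76 (0.34) and DTL (0.23), both linked to CRL4 ubiquitin ligase, rose, and the checkpoint adaptor CLSPN was at -0.06. With the RNF2 libraries alone against GFP, the calls of SLBP (adjusted p 0.31), RFC2 (0.275) and WDR76 (0.0939) were lost. With each library left out in turn, 25 of the 29 calls held. The 11 genes with an E2F element in the searched window had a median log2 fold change of 0.44 (9 rose, none fell), and the 20 without one had a median of 0.14 (11 rose, 2 fell), given as a description.

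The editors were compared with GFP in the same way. With ABEmax 25 genes rose and 6 fell (27% and 27% of all genes), with miniABEmax-V82G 23 and 6 (24.2% and 24.3%), with Target-AID 23 and 5 (27.4% and 24.6%) and with SpACE 25 and 3 (21.4% and 21.9%). Their medians were 0.29, 0.19, 0.24 and 0.26. E2F1 stood at log2 fold changes of 1.35 with ABEmax, 1.12 with miniABEmax-V82G, 1.57 with Target-AID and 0.95 with SpACE. CCNE1 lay between 0.76 and 0.95 with all 4 editors. In all 5 comparisons 19 of the 38 genes rose, beside 11.1% of all genes tested, and RPA3 fell, beside 11.5%, and POLA1 and RFC4 were called in none. Not all of these calls held with each library left out in turn. Those of ORC1, ORC6, CHAF1A and RPA3 with nCas9 were lost, as were POLA2 with miniABEmax-V82G and CHAF1A with SpACE. PCNA and RRM2, the regulated subunit of ribonucleotide reductase, were the only genes called in both directions: PCNA rose with nCas9 and fell with Target-AID (-0.24), and RRM2 rose with Target-AID (0.23) and fell with ABEmax (-0.20). The RRM2 fall was lost with the RNF2 libraries alone (adjusted p 0.319).

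**Figure D2:**
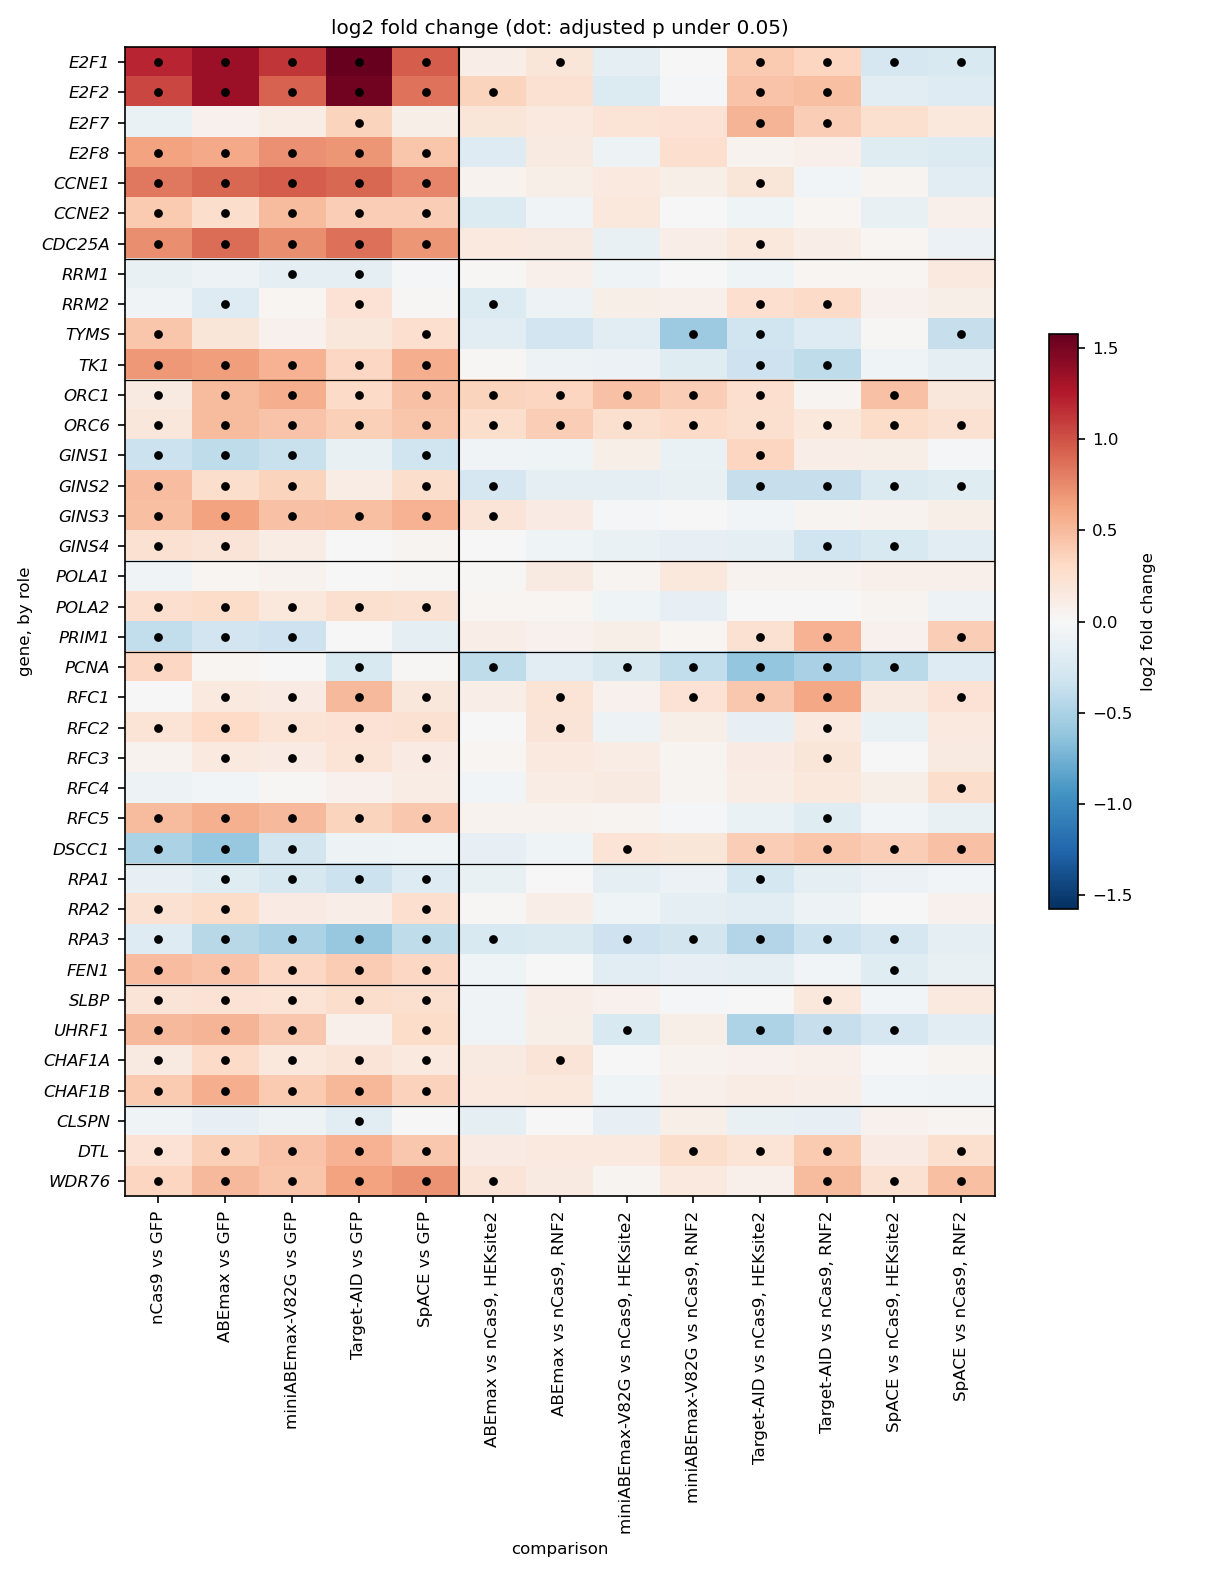
Log2 fold change of the 38 genes (rows, by role) in 13 comparisons (columns); colour gives the value and a dot an adjusted p under 0.05. The columns against GFP are positive for E2F1, E2F2, CCNE1 and CDC25A, and the columns against nCas9 are paler for these genes. Over all 38 genes the columns against nCas9 reach at most 0.61 in size.

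A list of 40 genes of G2 and mitosis, chosen with earlier results of these data known, moved in the other direction against GFP. With nCas9 none rose and 33 fell (median -0.39), beside 22.8% and 22.7% of all genes. With Target-AID none rose and 37 fell (median -0.47), beside 27.4% and 24.6%. With ABEmax 1 rose and 31 fell, beside 27% and 27%. None rose with miniABEmax-V82G or SpACE, where 35 and 32 fell, beside 24.3% and 21.9% of all genes that fell. The mitotic kinesin KIF20A fell by 0.64 with nCas9. The mean log2 deviation of the 38 G1/S and replication genes from their level over all libraries was -0.24, -0.23 and -0.25 in the 3 GFP libraries and between -0.04 and 0.13 in the other 30. For the G2 and mitosis list it was 0.36, 0.33 and 0.32 with GFP and between -0.21 and 0.08 elsewhere. The part of cell-cycle position in the changes of the 38 genes was not tested.

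**Figure D3:**
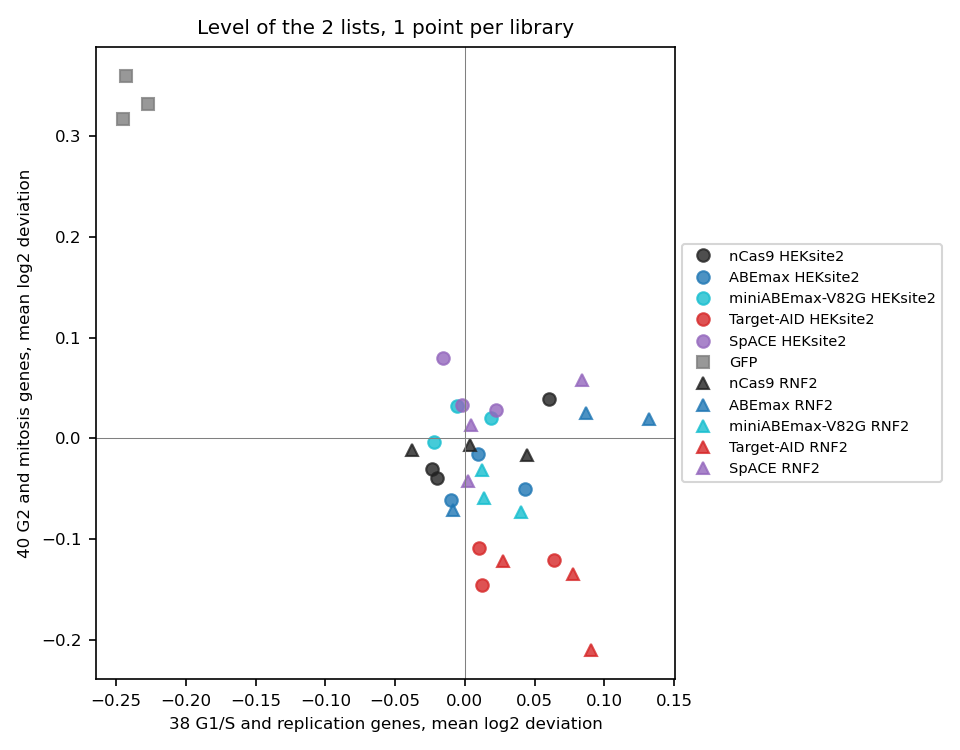
Mean log2 deviation of the 38 G1/S and replication genes (horizontal axis) and of 40 G2 and mitosis genes (vertical axis) in each of the 33 libraries. The 3 GFP libraries stand apart at low values of the first and high values of the second, and the 6 Target-AID libraries hold the lowest values of the second.

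The editors were then compared with nCas9 carrying the same guide, the control without a deaminase; comparisons with one guide share their 3 nCas9 libraries. The largest changes were smaller than against GFP, with no log2 fold change above 0.61 in size. This did not hold gene by gene. E2F1 reached 0.42 against nCas9 and 1.57 against GFP, while RFC1 reached 0.61 and 0.51 and PCNA -0.61 and 0.33. Of the 38 genes 30 were called in at least 1 of the 8 comparisons and 8 in none, beside 59.7% of all genes called in at least 1. 

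Target-AID gave the most calls. Its libraries also stood apart in other ways: the summed level of 8 erythroid marker genes was 7442 to 11230 CPM in the 6 Target-AID libraries and at most 4.09 CPM in the other libraries. Of these genes HBB and HBD, which encode globins, reached 5520 and 5714 CPM, while HBA1 stayed at or below 0.249 CPM and HBG1 had no count in any library. The summed level of 12 marker genes of the HEK293 line was 694 to 721 CPM with Target-AID and 832 to 893 CPM with nCas9. Target-AID replicate 3 differed from replicates 1 and 2 by a chi-square per degree of freedom of 9.92 and 13.5 with HEKsite2 and of 20.7 and 12.3 with RNF2, against at most 5.02 for any other pair of replicates. The part of these differences in the values below was not tested. Without Target-AID replicate 3 the counts of called genes were 20 with HEKsite2 and 18 with RNF2. With the HEKsite2 guide 13 of the 38 genes rose and 7 fell, beside 21.5% and 19.1% of all genes, and with the RNF2 guide again 13 rose and 7 fell (19.4% and 15.8%). Among them E2F1, E2F2, E2F7, RRM2, ORC6, PRIM1, RFC1, DSCC1 and DTL (9 of 38, beside 14.9% of all genes) rose with both guides, and TK1, GINS2, PCNA, RPA3 and UHRF1 (5 of 38, beside 11.7%) fell with both. The DTL call with HEKsite2 was lost without Target-AID replicate 1 or nCas9 replicate 3 (adjusted p up to 0.132). Leaving out each library in turn, 15 of 20 calls held with HEKsite2 and 17 of 20 with RNF2.

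E2F1 reached 128, 122 and 128 CPM with Target-AID and HEKsite2, above the 93.4 to 95.2 CPM of its nCas9 libraries (log2 fold change 0.42 ± 0.057, edgeR adjusted p = 1.859e-07). With RNF2 it was at 132, 121 and 139 CPM against 101 to 106 (adjusted p = 9.496e-06). E2F2 rose by 0.45 and 0.48 and E2F7 by 0.53 and 0.39 with HEKsite2 and RNF2. E2F7 was at 64.1, 64.6 and 64.6 CPM with Target-AID and HEKsite2 and at 46.7, 38.7 and 48.0 CPM with nCas9, without overlap. RFC1 was at 257, 237 and 217 CPM against 182, 172 and 175 with HEKsite2, and at 250, 240 and 213 against 160, 147 and 152 with RNF2. Every Target-AID library was above every nCas9 library (log2 fold change 0.43 ± 0.059 and 0.61 ± 0.060, edgeR adjusted p = 2.295e-07 and 8.975e-11), and without Target-AID replicate 3 the RFC1 values were 0.49 and 0.68. DSCC1 rose by 0.39 with HEKsite2, to 48.7 to 56.0 CPM, just below the 56.3 to 57.4 CPM of GFP. PRIM1 rose by 0.23 with HEKsite2, a call lost without nCas9 replicate 2, nCas9 replicate 3 or Target-AID replicate 3 (adjusted p up to 0.0841), and with RNF2 to 66.4, 57.4 and 74.7 CPM against 43.9 to 47.8 (edgeR adjusted p = 2.12e-06). ORC6 rose by 0.25 and 0.16, the second lost without nCas9 RNF2 replicate 1 or 2 or Target-AID RNF2 replicate 2 or 3 (adjusted p up to 0.14), with no filter, with DESeq2 and with only the groups compared.

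PCNA fell under the GFP level with Target-AID. It was at 210, 236 and 237 CPM with HEKsite2 and at 203, 228 and 244 CPM with RNF2, against 293 to 373 CPM in the nCas9 libraries (log2 fold change -0.61 ± 0.076 and -0.51 ± 0.076, edgeR adjusted p = 2.437e-08 and 9.918e-07). UHRF1 was at 152, 126 and 132 CPM against 203, 191 and 181 with HEKsite2, without overlap (log2 fold change -0.49 ± 0.067). RPA3 fell by 0.46 and 0.34, GINS2 by 0.36 and 0.36 and TK1 by 0.32 and 0.40 on the log2 scale. TK1 was at 124, 102 and 121 CPM with Target-AID and HEKsite2, between its GFP and nCas9 levels. Within the 38 genes, then, E2F1 and E2F2 were higher and PCNA, GINS2, TK1 and UHRF1 lower in the same Target-AID libraries. Of the 40 G2 and mitosis genes 3 rose and 14 fell with HEKsite2, beside 21.5% and 19.1% of all genes. With RNF2 none rose and 13 fell, beside 19.4% and 15.8%. The part of these changes in the values above was not tested.

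**Figure D4:**
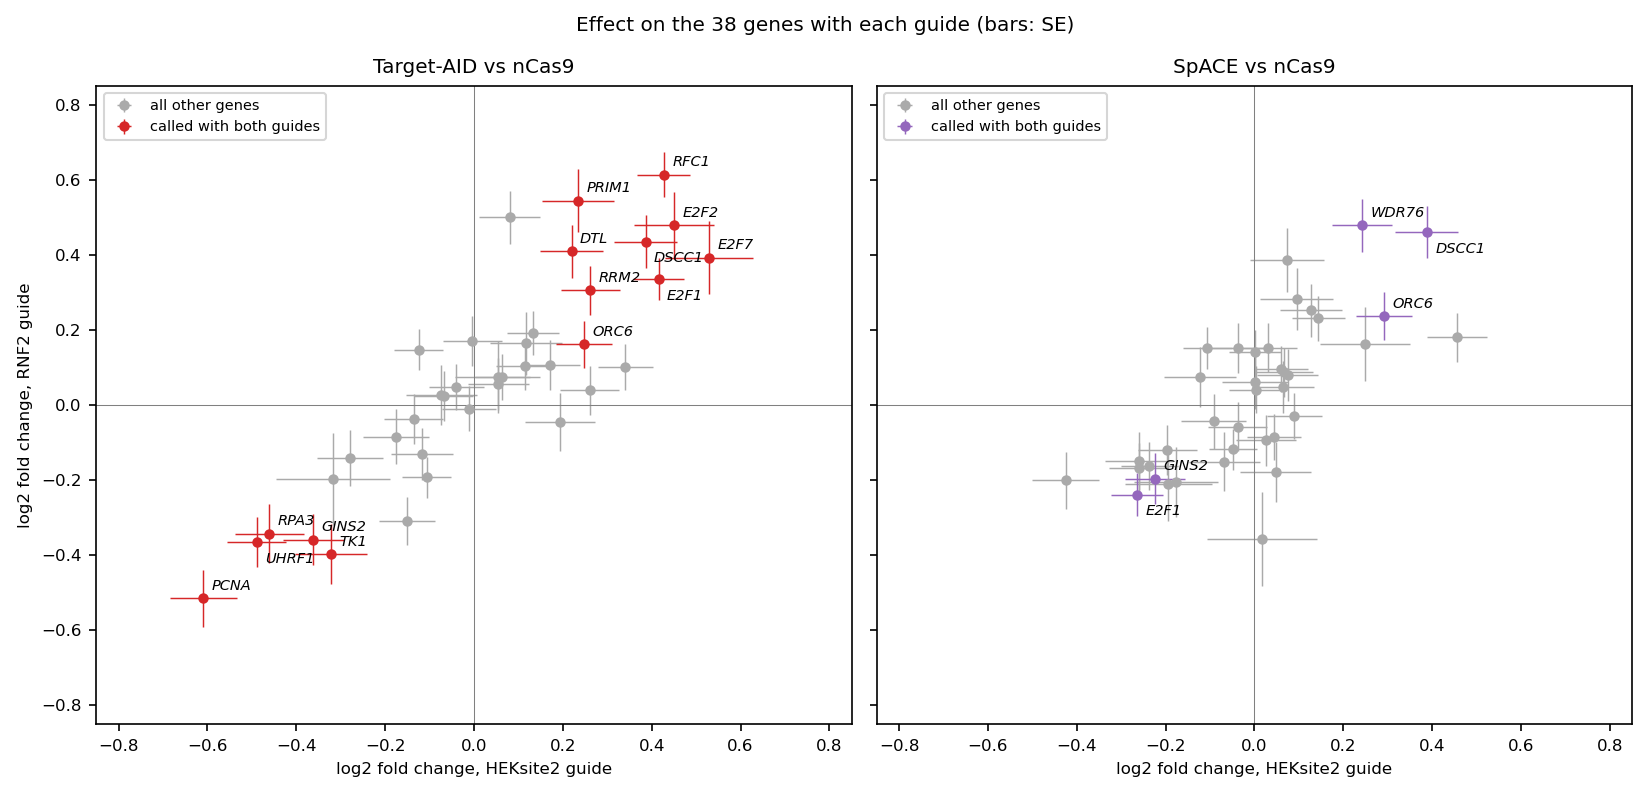
Log2 fold change against nCas9 with the HEKsite2 guide (horizontal axis) and with the RNF2 guide (vertical axis) for the 38 genes, for Target-AID and SpACE; bars are ± 1 SE. RFC1, E2F2 and E2F1 lie at the upper right and PCNA at the lower left for Target-AID.

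SpACE gave 4 genes that rose and 7 that fell with HEKsite2, beside 10.7% and 10.2% of all genes, and 7 that rose and 3 that fell with RNF2 (8.03% and 6.68%). E2F1 fell with both guides. It was at 81.7, 79.5 and 74.8 CPM with HEKsite2 and at 86.4, 89.7 and 87.4 CPM with RNF2, below every nCas9 library of the same guide (log2 fold change -0.26 ± 0.059 and -0.24 ± 0.058, edgeR adjusted p = 0.001181 and 0.003768), and still above the GFP libraries. DSCC1 rose by 0.39 and 0.46 with HEKsite2 and RNF2 (edgeR adjusted p = 0.0001022 and 7.858e-06) to 49.0 to 57.6 CPM, and ORC6 by 0.29 and 0.24. WDR76 rose with RNF2 to 94.2, 86.8 and 92.4 CPM against 70.5, 59.9 and 65.6 with nCas9, without overlap (log2 fold change 0.48 ± 0.071). Its rise of 0.24 with HEKsite2 was lost without SpACE replicate 1 or nCas9 replicate 2 (adjusted p up to 0.075). With HEKsite2 ORC1 rose by 0.46 and PCNA was at 234, 268 and 273 CPM against 373, 335 and 333 (edgeR adjusted p = 6.753e-05); with RNF2 PCNA was at -0.20 and ORC1 at 0.18, neither past the threshold. GINS2 fell with both guides (-0.22 and -0.20), calls lost without nCas9 HEKsite2 replicate 1 or SpACE HEKsite2 replicate 3 and, with RNF2, without any 1 of 5 of the 6 libraries (all but SpACE replicate 1; adjusted p up to 0.218) or with no filter. TYMS fell by 0.36 with RNF2, from 16.0, 16.8 and 12.6 to 11.3, 13.3 and 10.9 CPM. The groups overlap, and the call was lost without nCas9 replicate 1 or 2 or SpACE replicate 1 or 3 (adjusted p up to 0.216), with no filter, with DESeq2 and with only the groups compared. With each library left out in turn 7 of 11 calls held with HEKsite2 and 6 of 10 with RNF2.

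Set against Target-AID with the same guide, SpACE had lower levels of E2F1 and E2F2 with both guides. With HEKsite2 3 of the 38 genes were higher and 6 lower (8.21% and 10.3% of all genes), and with RNF2 3 and 6 (6.61% and 9.32%). E2F1 was lower by log2 values of -0.68 ± 0.058 and -0.57 ± 0.057 (edgeR adjusted p = 1.976e-12 and 1.838e-10), E2F2 by -0.63 and -0.68 and RFC1 by -0.28 and -0.38. No library overlapped for E2F1. PCNA was higher in SpACE with RNF2 (0.31). TK1 was higher by 0.25 with each guide, calls lost with HEKsite2 without SpACE replicate 1 or Target-AID replicate 2 and with RNF2 without SpACE replicate 1 or Target-AID replicate 1 or 2 (adjusted p up to 0.206) or with only the groups compared. With each library left out in turn 4 of 9 calls held in each.

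ORC1 and ORC6 rose with both adenine base editors and with both guides. PCNA and RPA3 fell with both of these editors with HEKsite2, and RFC1 rose with both editors with RNF2. With ABEmax the RFC1 call was lost without ABEmax RNF2 replicate 1 or nCas9 RNF2 replicate 2 (edgeR adjusted p up to 0.124). With miniABEmax-V82G it was lost without the same nCas9 RNF2 replicate 2 (0.0828). With ABEmax 5 genes rose and 4 fell with HEKsite2 (8.31% and 7.55% of all genes) and 6 rose and none fell with RNF2 (6.51% and 4.66%). With miniABEmax-V82G 3 rose and 3 fell with HEKsite2 (5.02% and 5.32%) and 4 rose and 3 fell with RNF2 (6.88% and 5.72%). ORC1 was at 146, 132 and 130 CPM with miniABEmax-V82G and HEKsite2 against 104, 96.6 and 96.3 with nCas9 (log2 fold change 0.46 ± 0.067, edgeR adjusted p = 7.015e-06), and rose by 0.38 with RNF2. With ABEmax it rose by 0.35 and 0.34. ORC6 was at 96.7, 87.2 and 86.1 CPM with ABEmax and RNF2 against 68.8, 66.9 and 71.2 (log2 fold change 0.38 ± 0.063, edgeR adjusted p = 4.645e-05). It rose by 0.28 with ABEmax and HEKsite2, and by 0.25 and 0.30 with miniABEmax-V82G. The libraries did not overlap for ORC1 or ORC6 in these comparisons. ORC6 was the 1 gene of the 38 that rose in all 8 comparisons with nCas9, and ORC1 rose in 6. These comparisons share the nCas9 libraries of each guide, and the ORC6 mean was lower in both nCas9 groups than in every editor group. The share of all genes that rose in as many comparisons was not counted.

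PCNA fell with ABEmax and HEKsite2, to 254, 273 and 262 CPM against 373, 335 and 333 (log2 fold change -0.40 ± 0.076, edgeR adjusted p = 0.0002385), and with miniABEmax-V82G and RNF2, to 243, 249 and 245 CPM against 336, 335 and 293 (-0.39 ± 0.076). Its fall with miniABEmax-V82G and HEKsite2 (-0.25) was lost without nCas9 replicate 1 or miniABEmax-V82G replicate 1 or 3 (adjusted p up to 0.165). RPA3 fell with miniABEmax-V82G by 0.32 and 0.29, the second lost without nCas9 RNF2 replicate 1 or 2 or miniABEmax-V82G RNF2 replicate 3 (adjusted p up to 0.116). TYMS fell with miniABEmax-V82G and RNF2 to 11.1, 9.63 and 9.84 CPM against 16.0, 16.8 and 12.6, without overlap (log2 fold change -0.58, edgeR adjusted p = 0.002735). E2F2 rose by 0.35 with ABEmax and HEKsite2, from 65.5 to 69.8 CPM to 82.4 to 91.2 CPM. GINS2 fell there by 0.26 on the log2 scale, a call lost without nCas9 replicate 1 or ABEmax replicate 2 (adjusted p up to 0.0644). E2F1 rose by 0.19 with ABEmax and RNF2, a call lost without nCas9 replicate 1 or 2 or ABEmax replicate 1 or 3 (adjusted p up to 0.0879) or with no filter. With each library left out in turn, ABEmax kept 4 of 9 calls with HEKsite2 and 2 of 6 with RNF2, and miniABEmax-V82G 3 of 6 and 4 of 7. PCNA and RPA3 each fell in 6 of the 8 comparisons with nCas9. These comparisons share the nCas9 libraries of each guide, and the means of both genes were higher in both nCas9 groups than in every editor group. The share of all genes that fell in as many comparisons was not counted. For RPA3 the calls with HEKsite2 were lost with ABEmax without nCas9 replicate 1 or 3 or ABEmax replicate 1 or 3 (adjusted p up to 0.117), and with SpACE without nCas9 replicate 1 or 3 or SpACE replicate 1 (up to 0.0785).

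The 2 guides were also compared within nCas9, where 1 gene rose and 3 fell with RNF2 against HEKsite2 (0.602% and 1.46% of all genes). ORC1 was at 131, 123 and 125 CPM with RNF2 and at 104, 96.6 and 96.3 with HEKsite2, without overlap (edgeR adjusted p = 0.001698). WDR76 was lower with RNF2, at 70.5, 59.9 and 65.6 CPM against 86.8, 79.1 and 89.2 (log2 fold change -0.38 ± 0.072, edgeR adjusted p = 0.001518). PRIM1 (-0.37) and RFC2 (-0.27) were lower too. The PRIM1 call was lost without nCas9 HEKsite2 replicate 1 or nCas9 RNF2 replicate 2 or 3 (adjusted p up to 0.0945), and that of RFC2 without nCas9 RNF2 replicate 3 (0.0503).

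Whether an editor's change differed between the guides was tested as an interaction. None of the 38 genes passed it for ABEmax, miniABEmax-V82G, Target-AID or SpACE by edgeR, beside 0%, 0.0137%, 0.164% and 0.0274% of all genes. An unadjusted edgeR p under 0.05 was found for 3, 7, 7 and 6 of the 38, beside 596, 982, 1265 and 1083 of all 14613 genes tested. DESeq2 called 1 of the 38 for Target-AID. The smallest adjusted p for Target-AID was that of WDR76 (log2 difference 0.42 ± 0.099, edgeR adjusted p = 0.06382). WDR76 was at 0.08 with HEKsite2 and at 0.50 with RNF2, and its nCas9 level was itself lower with RNF2.

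Related lists, chosen with earlier results known, were read in the same fit, and their counts stand against 22.8% of all genes higher and 22.7% lower with nCas9 against GFP, 21.5% and 19.1% with Target-AID and HEKsite2, and 19.4% and 15.8% with Target-AID and RNF2. Of 20 further genes of helicase loading and origin firing, 9 rose and 5 fell with nCas9 against GFP, and 5 rose and 2 fell (HEKsite2) and 10 rose and 2 fell (RNF2) with Target-AID against nCas9. CDC45, a subunit of the active helicase, had the largest value. It was at 1439, 1177 and 1194 CPM with Target-AID and HEKsite2 against 162, 149 and 149 with nCas9 and 154, 146 and 145 with SpACE (log2 fold change against nCas9 3.05 ± 0.078 with HEKsite2 and 2.93 ± 0.078 with RNF2, edgeR adjusted p = 3.819e-29 and 1.351e-28). With the other 3 editors it did not pass the test against nCas9 with either guide. The same Target-AID libraries held the high HBB and HBD levels, and whether the CDC45 values are linked to these was not tested. Of 23 genes of the replication checkpoint and fork protection, 12 rose and 2 fell with Target-AID and HEKsite2 and 16 rose and 2 fell with RNF2, while 5 rose and 12 fell with nCas9 against GFP. ATR, the kinase that responds to stalled forks, was at -0.65 with nCas9 against GFP and rose with Target-AID by 0.51 and 0.42. Pyrimidine synthesis by CAD showed the same signs, with -0.56 and then rises of 1.05 and 0.96.

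Of 8 CDK inhibitor genes 5 rose and none fell with nCas9 against GFP, and against nCas9 none rose with any editor. With HEKsite2 2, 2, 5 and 2 of the 8 fell with ABEmax, miniABEmax-V82G, Target-AID and SpACE. The shares of all genes that fell there were 7.55%, 5.32%, 19.1% and 10.2%. With RNF2 3, 1, 3 and 2 of the 8 fell, beside 4.66%, 5.72%, 15.8% and 6.68% of all genes. CDKN2B, which encodes the inhibitor of cyclin D kinases p15, rose with nCas9 by 0.85 and fell with Target-AID by 0.92 and 0.80 on the log2 scale. CCND1, cyclin D1, rose with nCas9 against GFP by 0.56 and with Target-AID against nCas9 by 0.65 and 0.73. It fell with ABEmax (-0.53 and -0.41), miniABEmax-V82G (-0.56 and -0.36) and SpACE (-0.68 and -0.52), which places Target-AID opposite to the other editors for this gene. Against Target-AID, SpACE had higher levels of 19 and 17 of the 40 G2 and mitosis genes with HEKsite2 and RNF2, beside 8.21% and 6.61% of all genes. It had lower levels of none of them, beside 10.3% and 9.32% of all genes.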

How the data were processed

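Per the labels, RNA was extracted from sorted HEK293T cells and sequenced as TruSeq Stranded Total RNA libraries. The authors deposited 1 table of raw read counts per gene for the 33 libraries; STAR, GATK 3.8.1, Picard 2.7 and GRCh38 are named in the submitters' processing notes, while for the counting step the tool, the strand option and the gene models were not given in the sources used here. Columns were matched to samples by name (those of SpACE also carry the letters UGI, which the labels do not mention), and groups were taken from the labels.

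Counts were tested with edgeR 4.0.16 (R 4.3.3) by the quasi-likelihood F-test after TMM scaling and filterByExpr, in 1 fit with a mean per group over all 33 libraries. P-values are two-sided and adjusted by Benjamini-Hochberg over all 14613 genes tested, with a threshold of 0.05. Totals of 6790209 to 11200406 reads limit the precision for low genes. RPKM used GENCODE 29 exon lengths. Levels of lists are means of log2(CPM + 0.5) deviations. Promoter sequences are RefSeq's for GRCh38.p14. The members and all gene lists were chosen with earlier results of these data known. Genes named were the 2 largest called rises and falls in each of the 8 comparisons with nCas9 and in nCas9 against GFP, E2F1, CCNE1, CCNE2, PCNA and RRM2, and up to 4 genes from each related list by smallest p; others are named from small counts or by role, after their values were seen. The fit was tested on simulated data for Target-AID against nCas9 with HEKsite2 (14362 genes). It recovered 10%, 32%, 80% and 90% of 50 genes each that were changed 1.15-, 1.25-, 1.5- and 2-fold, with 14162 genes left unchanged. In the data 5932 of 14613 genes were called in this comparison, so these rates need not hold there. Alternatives were DESeq2 1.42.0, RLE scaling, no filter, only the groups compared, a replicate block, single guides against GFP and leaving out each library. Figures were drawn with matplotlib 3.10.9.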

Additional observations from a re-analysis of the deposited data

How the results depend on the processing

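Of 256 called results of single genes, 188 kept direction and threshold under every alternative and 68 were lost under at least 1. Counts of called genes that moved by over 1.5 times were as follows. ABEmax with HEKsite2 went from 9 to 5 without nCas9 HEKsite2 replicate 1 or ABEmax HEKsite2 replicate 2 (range 5 to 7), and miniABEmax-V82G with HEKsite2 from 6 to 3 without nCas9 HEKsite2 replicate 1 (3 to 6). ABEmax with RNF2 went from 6 to 3 without nCas9 RNF2 replicate 2 (3 to 6), and the guides in nCas9 from 4 to 2 without nCas9 RNF2 replicate 3 (2 to 4). Fitting only the groups compared gave 14 in place of 7 for miniABEmax-V82G with RNF2 and 4 in place of 9 for SpACE against Target-AID with RNF2, which was 5 without SpACE RNF2 replicate 2 (5 to 11). The Target-AID interaction went from 0 to 1 with no filter, with DESeq2, with the replicate block, and without nCas9 HEKsite2 replicate 2, nCas9 RNF2 replicate 1 or Target-AID RNF2 replicate 3 (0 to 1). For the other counts, leaving out 1 library gave 16 to 20 and 17 to 19 for Target-AID, 8 to 10 and 7 to 10 for SpACE, 5 to 8 for miniABEmax-V82G with RNF2, 6 to 10 for SpACE against Target-AID with HEKsite2, 26 to 29 for nCas9, 30 to 31 for ABEmax, 26 to 29 for miniABEmax-V82G, 27 to 29 for Target-AID and 25 to 28 for SpACE against GFP, and 36 to 37 for any difference. ORC1 with nCas9 against GFP reversed to -0.031 (adjusted p 0.759) with the HEKsite2 libraries only. The cause was not tested in any of these.

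Over all genes tested, replicate numbers did not pair the libraries by the rule used. In none of 33 pairs of groups were all same-numbered deviations correlated above 0.1 (lowest -0.198). For the mean level of the 38 genes, replicate 1 was nonetheless the highest in every group except GFP. It was at 0.06 against -0.02 and -0.02 with nCas9 and HEKsite2, and at 0.13 against 0.09 and -0.01 with ABEmax and RNF2. What lies behind this was not tested. With the replicate block, SpACE against Target-AID with HEKsite2 gave 14 genes in place of 9; over single genes the block ended 0 calls and added 25.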
